A study of Homo sapiens with 23 samples.

Results

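The 10 genes described here are HSPA5, HSP90B1, PDIA3, PDIA4, CALR, DNAJB9, HERPUD1, SDF2L1, XBP1 and EDEM1, which serve protein folding in the endoplasmic reticulum (ER) and the unfolded protein response. They were taken by gene symbol from a set named with earlier results of these data known, the rule itself using no measured value, and they are 10 of the 60564 genes listed in each mRNA-seq library. The study built the iGLC platform, a microfluidic chip in which gut and liver cells share medium, as a cell model of fatty liver disease. The 23 libraries came from 2 established human lines, Caco-2 (intestinal origin, 11 libraries) and HepG2 (hepatocellular carcinoma, 12 libraries). The cells were mono-cultured or co-cultured on the chip and were kept for 1 day with FFAs (free fatty acids, 1 mM in total of palmitic acid and oleic acid at 1:2) or without FFAs (control). Co-cultured control Caco-2 cells had 2 libraries and each of the other 7 groups had 3.

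No group carried an engineered allele, and both lines are tumour lines rather than normal gut or liver cells. The labels give 0.5% fetal bovine serum during treatment for every sample, and their RNA protocol names differentiated primary myoblasts. No muscle genes were examined, and the markers below only compare the labelled lines. The summed level of 10 hepatocyte genes was 63403 to 94183 TPM (transcript abundance corrected for transcript length and library size) in HepG2 libraries and 4765 to 6999 TPM in Caco-2 libraries. The sum of 10 intestinal genes was 905 to 1212 TPM in Caco-2 libraries and 157 to 254 TPM in HepG2 libraries. Relative to mono-cultured control HepG2 cells, 34 HepG2 marker genes summed to 2.08% in co-cultured FFAs-treated Caco-2 replicate 1 and to 0.825% in co-cultured control Caco-2 replicate 1. They summed to 0.0884% to 0.242% in the other Caco-2 libraries. Relative to mono-cultured control Caco-2 cells, 63 Caco-2 marker genes summed to 0.613% and 0.542% in co-cultured FFAs-treated HepG2 replicates 1 and 3. In the other HepG2 libraries they summed to 0.127% to 0.282%. None of the 10 ER genes was among the markers of either line. The labels do not say whether replicates came from separate cultures, while the study's methods describe mRNA-seq from at least 2 independent experiments without saying which library came from which. The p-values measure the spread between these libraries. The TPM hold no read counts, so the depth is unknown, and 19259 to 23689 genes were above 0 in a library. These were bulk libraries, so fewer cells of a type and less RNA per cell cannot be told apart.

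Proteins bound for secretion or for membranes fold inside the ER with the help of chaperones, and the glycoproteins among them pass through a lectin cycle that holds them until they are folded. When unfolded proteins accumulate, the sensors IRE1 (gene ERN1), PERK (EIF2AK3) and ATF6 raise the transcription of chaperones and of genes that send misfolded proteins to degradation. Saturated fatty acids such as palmitic acid are a known trigger of this response in cultured hepatocytes, and oleic acid is known to lessen it. In the set described here, HSPA5 (BiP), HSP90B1 (GRP94), DNAJB9 (ERdj4) and SDF2L1 belong to the Hsp70 and Hsp90 chaperone systems of the ER. PDIA3, PDIA4 and CALR fold glycoproteins and disulfide bonds, HERPUD1 and EDEM1 act in ER-associated degradation, and XBP1 is the transcription factor made active by IRE1.

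Sequences are shown first because a known control element, the ER stress response element, occurs in part of this set. It was searched as CCAAT, any 9 bases and then CCACG, on both strands of the RefSeq promoter windows (GRCh38.p14, 250 bases before to 50 after each gene start). The search found it in 27 of 35116 windows, or 0.0769%, and 4 of the 10 genes (HSPA5, HSP90B1, CALR and XBP1) had such a window. The matches are printed below 5′ to 3′ on the strand of the gene, with the element in capitals and 5 flanking bases on each side.
HSPA5, chr9:125241386-125241414, minus strand: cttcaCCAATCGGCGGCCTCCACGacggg
HSP90B1, chr12:103930211-103930239, plus strand: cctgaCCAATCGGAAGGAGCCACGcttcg
HSP90B1, chr12:103930316-103930344, plus strand, element in reverse: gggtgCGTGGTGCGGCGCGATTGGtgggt
CALR, chr19:12938379-12938407, plus strand, element in reverse: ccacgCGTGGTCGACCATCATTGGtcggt
XBP1, chr22:28800598-28800626, minus strand: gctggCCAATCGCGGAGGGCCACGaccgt

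A shorter form of the element, ATTGG, any base and then CCACG, was found in 19 of the 35116 windows, or 0.0541%. The windows of HERPUD1 and SDF2L1 held it, and it is shown because it sets these genes apart in sequence from the genes printed above.
HERPUD1, chr16:56932020-56932040, plus strand: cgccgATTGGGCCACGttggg
SDF2L1, chr22:21642109-21642129, plus strand, element in reverse: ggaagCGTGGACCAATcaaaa

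The core of the unfolded protein response element, TGACGTGG, was in 0.729% of all windows and in none of those of the 10 genes. PDIA4, DNAJB9 and EDEM1 held none of the 3 motifs in these windows. For PDIA3, no window was compared. A match is a string of letters and says nothing by itself about binding.

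XBP1 is controlled at another point, since IRE1 cuts a short intron out of its mRNA and the spliced form encodes the active factor. The intron spans chr22:28796128-28796153 (GRCh38, minus strand). It lies inside the XBP1 coding sequence of GENCODE v44. Its 26 bases, a gap between transcript models, are in capitals below, with 20 coding bases on each side. Their number is not a multiple of 3. The capitals open with G and are followed by another G, so the spliced sequence leaves their exact edges open. They and the coordinates need not mark the sites where IRE1 cuts.
XBP1 intron: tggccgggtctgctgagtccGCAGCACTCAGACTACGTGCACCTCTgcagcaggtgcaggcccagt
The TPM of XBP1 sum both forms, so the XBP1 values below are a level of its mRNA and not of the spliced share.

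All 10 genes passed the filter on low values (a mean of at least 1 TPM) in both lines, and every library had a level above 0 for each. HSP90B1 and PDIA3 had 888 to 1263 TPM and 863 to 1106 TPM over the 23 libraries. In Caco-2 cells all PDIA3 and HSP90B1 libraries were above all HSPA5 libraries, whereas in HepG2 cells the median of HSPA5 (1052 TPM) lay between those of HSP90B1 (1115 TPM) and PDIA3 (965 TPM). HSPA5 (578 to 1259 TPM), PDIA4 (379 to 718 TPM), XBP1 (461 to 911 TPM), CALR (216 to 559.6 TPM) and HERPUD1 (281 to 663 TPM) followed, listed in no order of level. The range of each overlapped that of the next in this list, while the lowest HSPA5 library was above the highest CALR library. SDF2L1 had 71.5 to 156 TPM, DNAJB9 12.2 to 92.3 TPM and EDEM1 20.6 to 34.4 TPM. The 10 genes together took 0.440% to 0.491% of all TPM in Caco-2 libraries and 0.492% to 0.582% in HepG2 libraries.

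**Figure D1:**
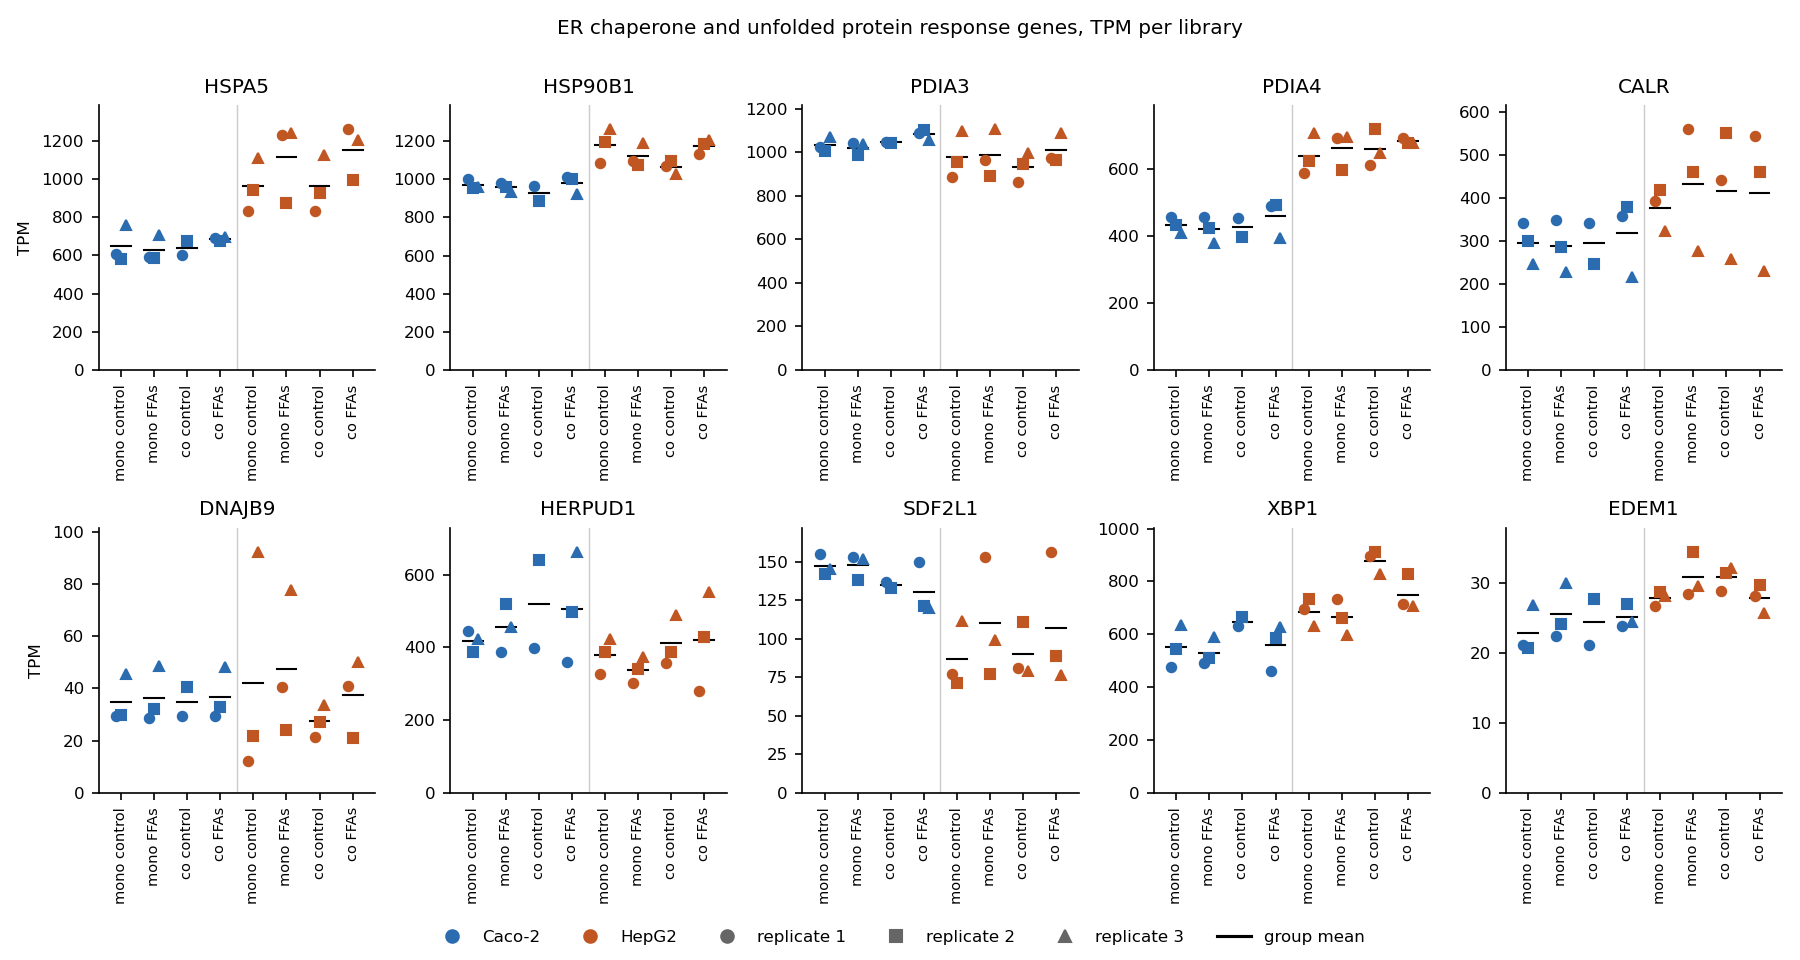
TPM of the 10 genes in every library, 1 panel per gene, with the 4 Caco-2 groups (blue) left of the 4 HepG2 groups (orange), marker shape for the replicate number and a black line for the group mean. All HepG2 libraries lie above all Caco-2 libraries for HSPA5, HSP90B1 and PDIA4, whereas control and FFAs-treated libraries of a line overlap in most panels.

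Differences that passed the test were found between the cell lines. Averaged over the 4 conditions, HSPA5, PDIA4, CALR, XBP1, EDEM1 and HSP90B1 were higher in HepG2 cells, and SDF2L1, HERPUD1 and PDIA3 were lower, while DNAJB9 did not pass the threshold. Thus 9 of 10 passed limma with a Benjamini-Hochberg adjusted p under 0.05, 6 up and 3 down. Over all 16495 genes tested, 79.0% passed, 29.2% higher and 49.8% lower in HepG2 cells, so the count of 9 is close to that of genes at large. The median log2 difference of the 10 genes was 0.25, beside -0.24 for all genes tested. Scaling the libraries by median of ratios moved the median of all genes to -0.05 and the share of calls that were higher in HepG2 cells from 36.9% to 47.5%, and quantile normalization gave 0.00 and 50%.

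HSPA5, the central Hsp70 chaperone of the ER, had the largest difference. In Caco-2 cells its lowest, median and highest values were 578, 674 and 759 TPM over 11 libraries, and in HepG2 cells 829, 1052 and 1259 TPM over 12 libraries. The lowest HepG2 library lay above the highest Caco-2 library, and the fold was 1.59 (95% CI 1.43 to 1.78, limma adjusted p = 1.22e-07). PDIA4, a protein disulfide isomerase, had 379, 432 and 492 TPM in Caco-2 cells and 588, 678 and 718 TPM in HepG2 cells as lowest, median and highest values. Its libraries did not overlap between lines either, with a fold of 1.52 (95% CI 1.41 to 1.64, limma adjusted p = 2.28e-09). HSP90B1, the Hsp90 of the ER, had 888, 962 and 1012 TPM in Caco-2 cells and 1028, 1115 and 1263 TPM in HepG2 cells. This difference was small but without overlap, a fold of 1.18 (95% CI 1.12 to 1.25, limma adjusted p = 3.36e-06). These were the 3 of 10 genes without overlap between lines, beside 42.7% of all genes tested.

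The other calls came with overlapping libraries. XBP1 had a median of 585 TPM in Caco-2 cells and 723 TPM in HepG2 cells, with a log2 difference of 0.38 (SE 0.063, limma adjusted p = 1.58e-05). EDEM1, a mannosidase-like protein that delivers misfolded glycoproteins to degradation, had medians of 24.2 and 28.8 TPM and a log2 difference of 0.26 (SE 0.067, adjusted p = 0.00159). CALR, the lectin chaperone calreticulin, had medians of 300.3 and 429.8 TPM and a log2 difference of 0.42 (SE 0.17, adjusted p = 0.0284). SDF2L1, a partner of HSPA5 and its DNAJB co-chaperones, was the member that was lower in HepG2 cells by the most, with medians of 142 TPM in Caco-2 cells and 84.9 TPM in HepG2 cells and a log2 difference of -0.55 (SE 0.12, adjusted p = 0.000456). Only the FFAs-treated HepG2 replicates 1, at 153 TPM in mono-culture and 156 TPM in co-culture, reached the Caco-2 range. HERPUD1, an ER membrane protein of the degradation complex, had a log2 difference of -0.29 (SE 0.12, adjusted p = 0.0343) and PDIA3, the disulfide isomerase that works with CALR, one of -0.10 (SE 0.045, adjusted p = 0.0444).

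Several of these line differences depended on the treatment of the data. PDIA3 turned to 0.13 and passed in the other direction under median-of-ratios scaling, and HERPUD1 did not pass under it (-0.06) or under quantile normalization (-0.24). Without 1 library in turn, PDIA3 lost its call in 16 of 23 fits, HERPUD1 in 9 and CALR in 8. DNAJB9, a J-domain partner of HSPA5, had a log2 difference of -0.09 (95% CI -0.65 to 0.48, adjusted p = 0.776) and turned sign under both scalings. With only the mono-cultured controls of both lines, HSPA5, PDIA4, HSP90B1, XBP1 and SDF2L1 passed and the other 5 genes did not. Without the 2 Caco-2 libraries with the most HepG2 marker RNA, 8 genes passed and PDIA3 did not (-0.10, adjusted p = 0.093), and without every library numbered 3, 9 passed.

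**Figure D2:**
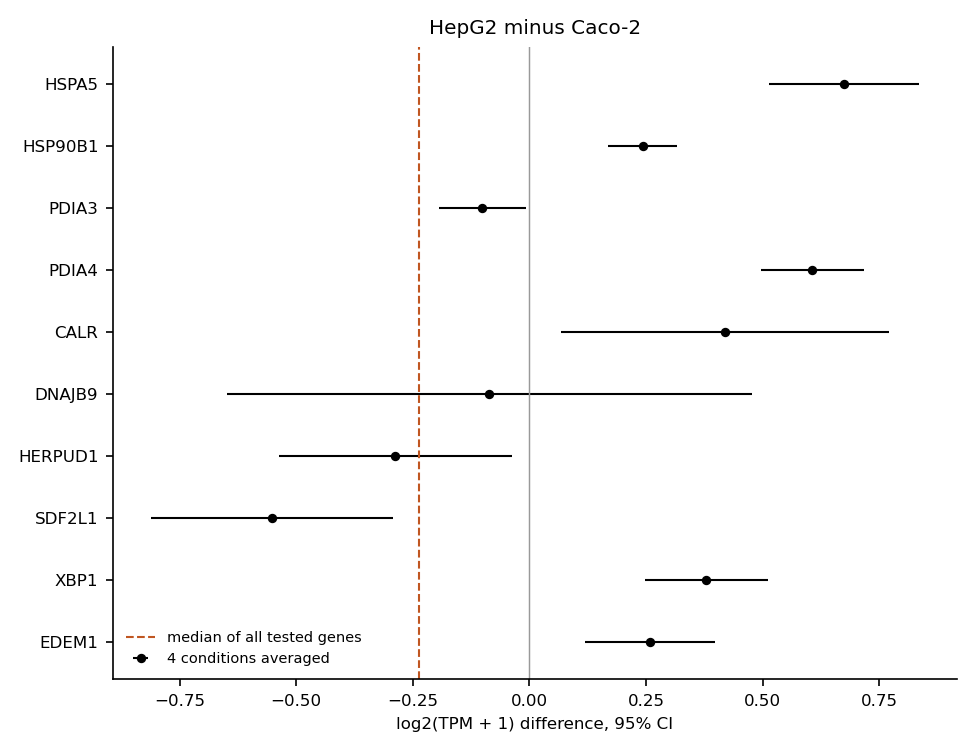
Difference in log2(TPM + 1) between HepG2 and Caco-2 cells averaged over the 4 conditions (points, limma estimates) with 95% confidence intervals, for each of the 10 genes. The intervals of HSPA5 (0.51 to 0.83) and PDIA4 (0.50 to 0.72) lie farthest right, that of DNAJB9 crosses 0, and the dashed line marks the median of all genes tested at -0.24.

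Whether FFAs alter these genes, and whether they do so in co-culture, was addressed by the comparison of FFAs-treated with control libraries. No difference was detected for any of the 10 genes after adjustment. In mono-cultured Caco-2 cells, 4 of the 10 estimates were above 0 (3 under median-of-ratios scaling and 5 under quantile normalization), and the largest was 0.15, for EDEM1. In mono-cultured HepG2 cells, 7 were above 0, and DNAJB9 (0.51), SDF2L1 (0.31) and HSPA5 (0.21) had the largest estimates with intervals that all included 0. In co-culture, 7 of the Caco-2 estimates and 6 of the HepG2 estimates were above 0. XBP1 had an estimate of -0.23 in co-cultured cells of both lines. In Caco-2 cells it was -0.10 without co-cultured FFAs-treated replicate 1, the library with 2.08% HepG2 marker RNA, and the part of that RNA in it was not tested. Leaving out 1 library moved HSPA5 in mono-cultured HepG2 cells to between 0.11 (without control replicate 1) and 0.37 (without FFAs-treated replicate 2), and EDEM1 in mono-cultured Caco-2 cells to between 0.03 (without FFAs-treated replicate 3) and 0.27 (without control replicate 3).

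By limma with adjustment over all genes, 0 of 10 genes passed in mono-cultured Caco-2 cells (0% of the 15081 genes tested) and 0 of 10 in co-cultured Caco-2 cells (0.0199%). In HepG2 cells 0 of 10 passed in mono-culture and 0 of 10 in co-culture, as did 0% of the 14255 genes tested in each. At an unadjusted p under 0.05, the counts were 0 of 10 in both Caco-2 cultures, where 2.61% and 2.83% of all genes passed, 0 of 10 in mono-cultured HepG2 cells (2.24%) and 1 of 10, XBP1, in co-cultured HepG2 cells (1.84%). Averaged over both cultures, 0 of 10 passed with adjustment in either line (0% of genes in each), and 0 of 10 without adjustment, beside 3.99% of genes for Caco-2 and 3.49% for HepG2. With a term for the replicate number, some genes were under 0.05 without adjustment and none with it. They were XBP1 in co-culture and averaged in both lines, PDIA4 in co-cultured Caco-2 cells and HSPA5 averaged in HepG2 cells.

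The HSPA5 levels show how the replicate spread compared with treatment. In mono-cultured HepG2 cells they were 831, 940.4 and 1109.7 TPM in control replicates 1 to 3 and 1227, 874 and 1240.4 TPM with FFAs. In co-cultured HepG2 cells they were 829, 926 and 1125 TPM in control and 1259, 995 and 1201 TPM with FFAs. In both cultures 2 FFAs-treated libraries were above all controls and replicate 2 was not, so the groups overlapped. Averaged over both cultures, the fold was 1.18 (95% CI 0.984 to 1.41, limma adjusted p = 1.00, unadjusted p = 0.0704). With a term for the replicate number, the log2 difference was 0.24 (limma unadjusted p = 0.0241, adjusted p = 0.669). Under quantile normalization its unadjusted p was also under 0.05 and its adjusted p was not. In Caco-2 cells the group means were 648 ± 97.3 TPM (SD, n = 3) in mono-cultured control, 628 ± 69.4 TPM (SD, n = 3) with FFAs, 639.8 ± 50.7 TPM (SD, n = 2) in co-cultured control and 687 ± 12.1 TPM (SD, n = 3) with FFAs. The averaged Caco-2 difference was 0.03 on the log2 scale (95% CI -0.15 to 0.21).

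XBP1 had the smallest p of the 10 genes in co-culture in both lines. In co-cultured HepG2 cells its level was 895, 911 and 827 TPM in control replicates 1 to 3 and 713, 829 and 708 TPM with FFAs. The highest FFAs-treated library lay just above the lowest control, so the groups overlapped, and the fold was 0.853 (95% CI 0.727 to 0.999, unadjusted p = 0.0493, limma adjusted p = 1.00). In co-cultured Caco-2 cells it was 631 and 664 TPM in the 2 control libraries and 461, 585 and 628 TPM with FFAs. These libraries did not overlap, although the lower control lay close to the highest treated library (log2 difference -0.23, 95% CI -0.55 to 0.10, limma adjusted p = 1.00). In mono-culture the XBP1 estimates were close to 0 in both lines, at -0.05 each. PDIA3 was the other gene without overlap in co-cultured Caco-2 cells, at 1046 and 1045 TPM in control and 1089.6, 1102 and 1057 TPM with FFAs (log2 difference 0.05, adjusted p = 1.00). The count of 2 of 10 stands beside 17.2% of all genes without overlap in that comparison.

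HSP90B1 in co-cultured HepG2 cells was the only further gene without overlap between FFAs and control. Its level was 1072, 1097 and 1028 TPM in control and 1132, 1184 and 1208 TPM with FFAs, a log2 difference of 0.14 (95% CI -0.05 to 0.33, limma adjusted p = 1.00). The count of 1 of 10 stands beside 5.42% of all genes. In mono-culture the same line gave 1182 ± 90.5 TPM (SD, n = 3) in control and 1121 ± 63.2 TPM (SD, n = 3) with FFAs, with overlapping libraries.

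The intervals give the differences that these libraries left possible before adjustment, and not the size of change that the test could detect. In Caco-2 cells the 95% interval of the FFAs difference in mono-culture extended by 0.135 on either side for PDIA3 and by 0.538 for DNAJB9, and the intervals of all 10 genes lay inside a doubling or halving in both cultures. In HepG2 cells they extended by 0.185 for HSP90B1 and by 1.36 for DNAJB9, whose interval alone reached a doubling. A doubling of DNAJB9 with FFAs in HepG2 cells was thus not excluded by these libraries.

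**Figure D3:**
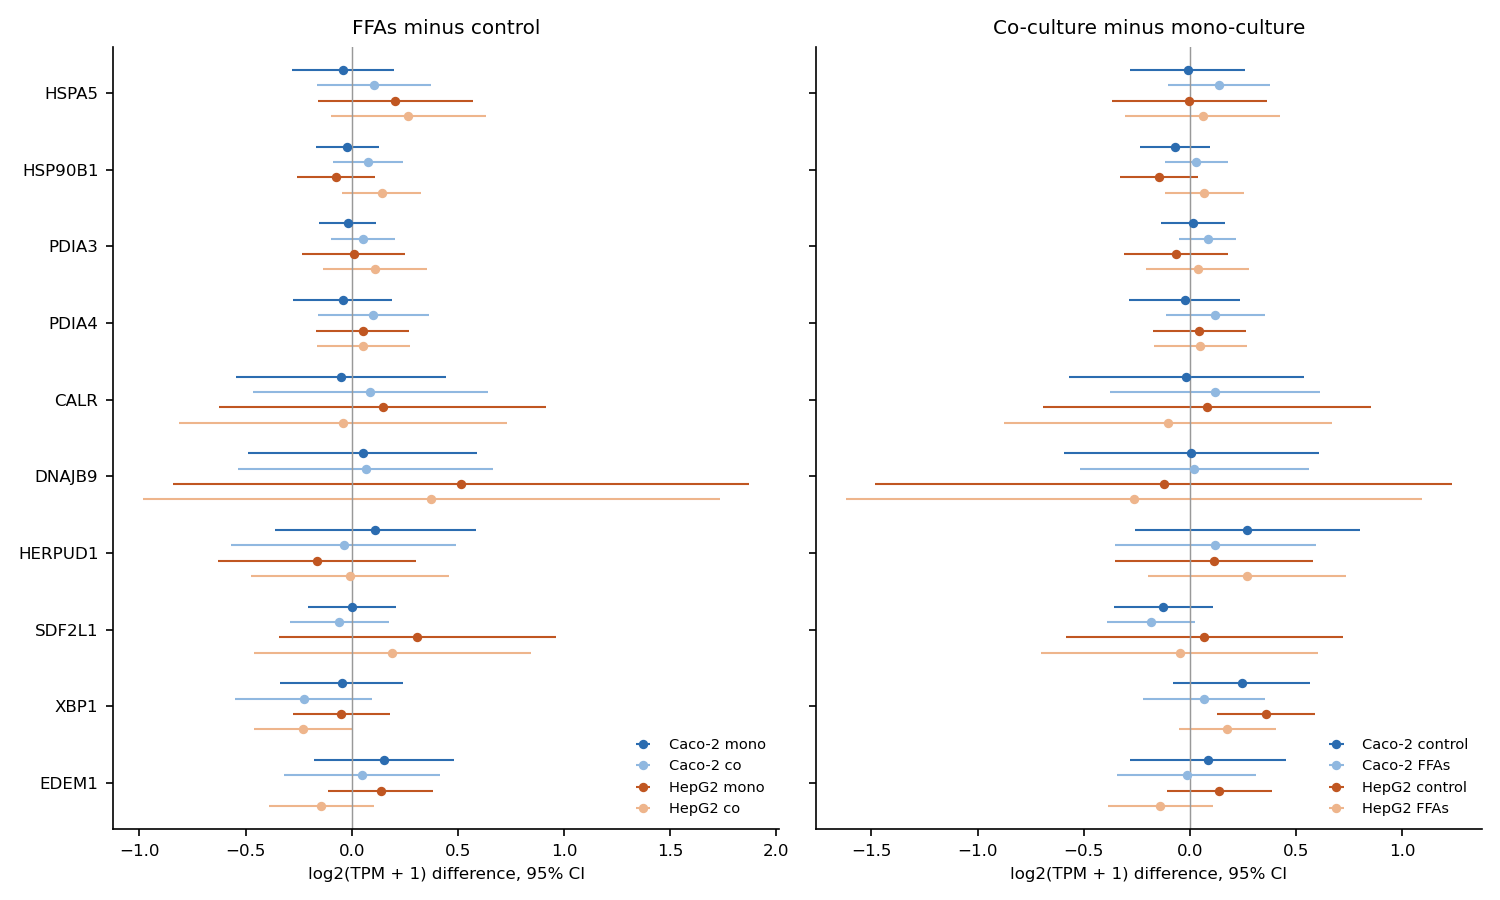
Log2(TPM + 1) differences of the 10 genes with 95% confidence intervals from limma, for FFAs minus control (left) and co-culture minus mono-culture (right), with a colour for each line and culture or treatment. The intervals of HepG2 XBP1 for co-culture in controls (0.13 to 0.59) and for FFAs in co-culture exclude 0 before adjustment, and all the others plotted include it; the co-culture comparison in controls and the FFAs comparison in co-culture share the 3 co-cultured control libraries.

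In fits without a term for the replicate number, co-culture likewise gave none of the 10 genes past the adjusted threshold, and XBP1 in HepG2 cells came closest to it. In control HepG2 cells 0 of 10 genes passed (0% of the genes tested), and XBP1 was the 1 of 10 at an unadjusted p under 0.05 (7.53% of genes). The level of XBP1 was 695, 733 and 629.5 TPM in mono-cultured control replicates 1 to 3 and 895, 911 and 827 TPM in co-cultured control. All co-cultured controls were higher than all mono-cultured controls, and the fold was 1.28 (95% CI 1.09 to 1.5, unadjusted p = 0.00535, limma adjusted p = 0.578). EDEM1 was the other gene without overlap here, at 26.7, 28.8 and 28.2 TPM in mono-culture and 28.9, 31.4 and 32.2 TPM in co-culture (log2 difference 0.14, adjusted p = 0.818). The count of 2 of 10 stands beside 14.9% of all genes without overlap. The co-cultured controls also serve as the baseline of the FFAs comparison in co-culture, so the XBP1 estimates of 0.36 here and -0.23 there rest on the same 3 libraries.

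With FFAs, co-cultured HepG2 cells had 713, 829 and 708 TPM of XBP1 and mono-cultured cells 734, 661 and 595 TPM, which overlapped (log2 difference 0.18, 95% CI -0.05 to 0.41, adjusted p = 0.934). In this comparison 0 of 10 genes passed with adjustment (0%) and 0 of 10 without (5.63%). Averaged over both treatments, XBP1 had a fold of 1.2 (95% CI 1.08 to 1.35, unadjusted p = 0.00376, limma adjusted p = 0.187). It was the 1 of 10 genes at an unadjusted p under 0.05, where 12.5% of all genes were, and 0 of 10 passed with adjustment, beside 0.0561% of all genes. With a term for the replicate number, XBP1 passed in this averaged comparison (log2 difference 0.27, limma adjusted p = 0.0295), as 1 of 10 beside 492 of 14255 genes. The labels do not say what libraries of the same number shared. The averaged estimates of HERPUD1 (0.19, 95% CI -0.14 to 0.52) and DNAJB9 (-0.19) came next in size. In the same libraries, the co-culture estimates of the 10 hepatocyte genes were below 0 for 10 of 10, averaged and within each treatment, with an averaged median of -0.24, 5 of 10 at an unadjusted p under 0.05 and 0 past limma's adjusted threshold. Their summed level was 79071 to 94183 TPM in mono-cultured and 63403 to 82330 TPM in co-cultured control HepG2 libraries, with none of them at 0, and their part in the XBP1 value was not tested.

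By the study's criteria, which ask for an unadjusted analysis of variance p below 0.05 together with a 1.2-fold difference for any pair of the 4 groups, XBP1 was the 1 of 10 genes counted in HepG2 cells, where 3.56% of 29942 genes met them. Its largest difference between group means was 0.41 on the log2 scale, between co-cultured control and mono-cultured FFAs-treated cells (878 ± 44.6 and 664 ± 69.5 TPM, SD, n = 3 each). Its Benjamini-Hochberg adjusted p over all genes was 0.851, and without co-cultured control replicate 2 it no longer met the criteria. In Caco-2 cells 0 of 10 genes met them, beside 3.08% of 31100 genes, and SDF2L1 did so without co-cultured FFAs-treated replicate 1.

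In Caco-2 cells, co-culture against mono-culture gave 0 of 10 genes past the adjusted threshold in controls (0.0199% of genes), with FFAs (0%) and averaged over both treatments (0%). Without adjustment the counts were 0 of 10 in each, beside 5.43%, 6.09% and 10.5% of all genes. XBP1 was 474, 543 and 633 TPM in mono-cultured control and 631 and 664 TPM in co-cultured control. The lower co-cultured library lay below the highest mono-cultured one, and the log2 difference was 0.24 (95% CI -0.08 to 0.57, limma adjusted p = 0.867).

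SDF2L1 had the smallest averaged p in Caco-2 cells and pointed to lower levels in co-culture. It was 155, 142 and 146 TPM in mono-cultured control and 137 and 133 TPM in co-cultured control, without overlap. With FFAs it was 153, 138 and 152 TPM in mono-culture and 149.6, 121 and 120.1 TPM in co-culture, where replicate 1 overlapped the mono-cultured libraries. Averaged over both treatments the log2 difference was -0.15 (SE 0.071, unadjusted p = 0.0508, limma adjusted p = 0.480). That replicate 1 library was also the one with the highest share of HepG2 marker RNA, and the part of that RNA in its SDF2L1 value was not tested. In controls, 1 of 10 genes (SDF2L1) was without overlap, beside 23.1% of all genes. With FFAs, 1 of 10 was (PDIA3, 1041, 985 and 1039 TPM in mono-culture and 1089.6, 1102 and 1057 TPM in co-culture), beside 9.32%.

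The effect of FFAs was not shown to differ between cultures or lines for any of the 10 genes. The difference between the FFAs effects in co-culture and mono-culture passed for 0 of 10 genes in Caco-2 cells (0% of genes, and 0 of 10 beside 1.94% without adjustment). In HepG2 cells it passed for 0 of 10 (0%, and 0 of 10 beside 1.16% without adjustment), with the smallest p for HSP90B1 (log2 difference 0.21, 95% CI -0.05 to 0.48, adjusted p = 1.00). The FFAs effect in HepG2 minus that in Caco-2 cells passed for 0 of 10 (0.0182% of genes, and 0 of 10 beside 2.99% without adjustment), with HSPA5 at 0.20 (95% CI -0.12 to 0.53). The co-culture effect in HepG2 minus that in Caco-2 cells passed for 0 of 10 (0.533%, and 0 of 10 beside 14.6% without adjustment), with XBP1 at 0.11 (95% CI -0.15 to 0.37).

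Within a line, libraries of the same group spread widely for some of the genes. DNAJB9 spread most, from 12.2 to 92.3 TPM in HepG2 cells, a 7.57-fold range, and both ends were mono-cultured controls (replicates 1 and 3, with replicate 2 at 21.7 TPM). With FFAs the mono-cultured libraries were 40.4, 24.0 and 77.9 TPM, and the co-cultured ones 40.7, 21.0 and 50.3 TPM beside 21.2, 27.2 and 33.6 TPM in co-cultured control. In Caco-2 cells its range was 28.5 to 48.6 TPM. In each of the 7 groups that held a library numbered 3, that library had the highest DNAJB9 level and the lowest CALR level of its group. CALR was 230.1, 257, 277 and 323 TPM in the 4 HepG2 libraries numbered 3 and 393 to 559.6 TPM in the other 8.

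HERPUD1 was highest in the library numbered 3 in all 4 HepG2 groups, and XBP1 was lowest in it in all 4, whereas XBP1 was highest in it in all 3 such Caco-2 groups. The labels do not say whether libraries of the same number shared a chip, a day or a preparation. SDF2L1 in HepG2 cells was 153 and 156 TPM in both FFAs-treated replicates 1 and 71.5 to 112 TPM in the other 10 libraries. Those 2 libraries also had the lowest HepG2 marker sums, 70.8% and 72.6% of mono-cultured control, beside 83.6% to 108% in the others, and the part of this in the SDF2L1 level was not tested. PDIA3 and HSP90B1 in Caco-2 cells were the steadiest, with the highest library 1.12 and 1.14 times the lowest.

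**Figure D4:**
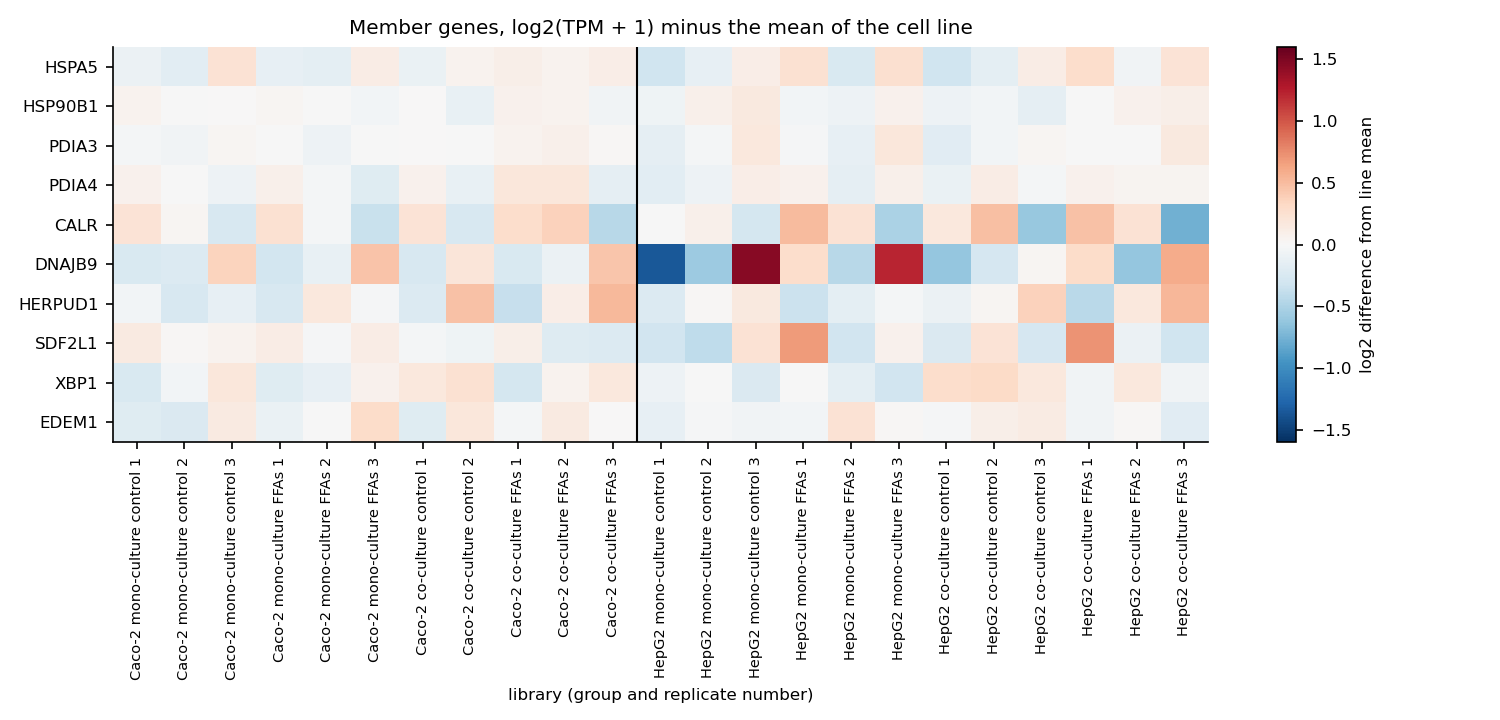
Log2(TPM + 1) of each of the 10 genes (rows) in each of the 23 libraries (columns) minus the mean of its cell line, red above and blue below it, with Caco-2 left of the black line. DNAJB9 holds the deepest red and blue cells, in mono-cultured control HepG2 replicates 3 and 1, and CALR is blue in every library numbered 3.

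The genes did not move as a single block across libraries. Pearson's r of log2(TPM + 1) with HSPA5 was computed for every gene tested, as a description over libraries that share conditions, preparation and composition. Over the 11 Caco-2 libraries the most similar genes were AKR1C2 (r = 0.93), MTERF4, LYPLA1, SEPSECS and ACSL1 (r = 0.91 each). Among the other 9 genes of the set, DNAJB9 (r = 0.77, place 195 of 15080) and EDEM1 (r = 0.77, place 209) came first, and CALR (r = -0.50, place 13717) last. Over the 12 HepG2 libraries the most similar were HSPD1 (r = 0.95), LRIF1 (r = 0.93), TXNDC5 (r = 0.92), AC090164.4 (r = 0.91) and PPP6C (r = 0.91). There DNAJB9 (r = 0.79, place 65 of 14254), PDIA3 (r = 0.79, place 68) and PDIA4 (r = 0.72, place 182) came first, and XBP1 (r = -0.39, place 11168) last. The places of PDIA4 differed between lines, with r = -0.35 in Caco-2 cells.

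The other genes of the pathway were grouped into 4 lists, which gave no call within either line. Over the 16 treatment, culture and effect comparisons, 0 genes passed with adjustment in any list. Without adjustment, passes numbered 7 of 256 tests for other ER chaperones and folding enzymes, 7 of 185 for other genes of ER-associated degradation, 5 of 160 for the sensors and transcription factors of the response, and 6 of 224 for ER translocation and signal peptide processing. The 10 genes themselves had 3 of 160, all of them XBP1 in HepG2 cells, and over the same 16 comparisons 5.39% of all gene tests were under 0.05 without adjustment.

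Between the lines, 7 of the 16 other chaperones passed limma's adjusted threshold as higher in HepG2 cells and 4 as lower. Over all genes tested, 29.2% passed as higher and 49.8% as lower, 79% in all. TXNDC5, a disulfide isomerase, was 158 ± 18.7 TPM (SD, n = 11) in Caco-2 cells and 536 ± 54.1 TPM (SD, n = 12) in HepG2 cells (log2 difference 1.77, limma adjusted p = 1.59e-15). P4HB, the major protein disulfide isomerase, was 960.4 ± 62.5 and 2110.4 ± 140.2 TPM, and DNAJC10, a J-domain reductase, 65.5 ± 7.89 and 131 ± 29.6 TPM. Of 12 other degradation genes, 5 passed as higher and 6 as lower. DERL3, a Derlin, was 2.76 ± 0.681 TPM in Caco-2 cells and had a median of 0 TPM and a highest value of 0.13 TPM in HepG2 cells. OS9, a lectin of the degradation complex, had a log2 difference of -0.54 (adjusted p = 3.03e-09) and SEL1L, its membrane scaffold, one of -0.80 (adjusted p = 8.03e-09).

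Of the 10 sensors and factors, 2 passed as higher and 6 as lower in HepG2 cells, again beside 29.2% and 49.8% of all genes. DDIT3 (CHOP), the factor linked to cell death under prolonged stress, was 133 ± 25.2 TPM in Caco-2 cells and 37.2 ± 10.4 TPM in HepG2 cells (log2 difference -1.86, adjusted p = 1.34e-10). The sensors ATF6 (8.13 ± 0.743 and 14.4 ± 1.58 TPM) and ERN1 (7.11 ± 2.29 and 19.9 ± 7.46 TPM) were the 2 that were higher. Of 14 translocation and processing genes, 6 passed as higher and 4 as lower. SEC11C, a signal peptidase subunit, was higher (48.5 ± 7.28 and 299 ± 36.1 TPM), as was SSR1 of the translocon (121 ± 9.03 and 244 ± 30.8 TPM), and SPCS2, another peptidase subunit, was lower (562 ± 40.0 and 214 ± 19.96 TPM). The median differences were 0.18 for other chaperones, -0.14 for degradation, -0.21 for sensors and factors and 0.16 for translocation, beside -0.24 for all genes.

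**Figure D5:**
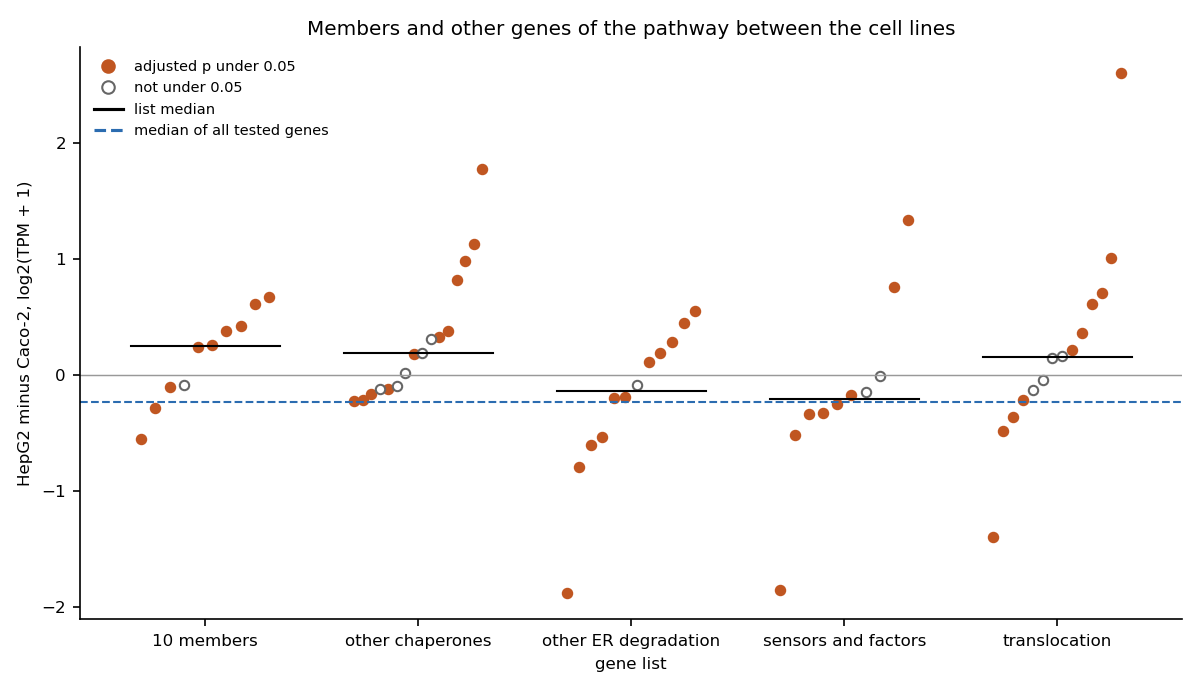
HepG2 minus Caco-2 differences in log2(TPM + 1), 1 point per gene, for the 10 genes and the 4 other lists of the pathway, filled where the limma adjusted p was under 0.05, with black lines for list medians and a dashed line for the median of all genes tested. The 10 genes span -0.55 to 0.67, within the span of other chaperones except at the low end.

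Related and overlapping genes, whose reads can be hard to assign, had low levels. PDIA3P1, a processed copy of PDIA3, had at most 16.7 TPM in any library, and HSP90B2P and XBP1P1 had at most 0.31 and 0.41 TPM. The kit did not mark strand, so reads of UQCC6, which runs opposite to HSP90B1 over 13169 bases and had at most 23.9 TPM, cannot be told from those of HSP90B1 where they overlap. ELL3, opposite to the end of PDIA3, had at most 10.4 TPM.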

How the data were processed

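The authors mapped mRNA-seq reads (polyA RNA, SMART-Seq v4) and deposited TPM per gene for each library. Per the submitters' processing notes the tools were Bowtie2 2.1.0, STAR 2.7.1a and RSEM 1.3.0 on GRCh38, and reads of rRNA, tRNA and the mitochondrial genome were discarded before mapping. The study's methods name serum-free medium for treatment, whereas the labels name fetal bovine serum. Groups came from the labels. Genes whose TPM averaged 1 or more were tested as log2(TPM + 1) with limma 3.58.1 (R 4.3.3, trend), on the 4 groups of a line or on all 8, with Benjamini-Hochberg adjustment over all genes and a threshold of 0.05. The fits had no term for the replicate number unless the text names one. Fold changes on this scale understate the change of low genes. The analysis of variance criteria followed the study. The scripts, in Python 3.11.15, were tested on simulated data. The named genes were all 10 members with, for each comparison, the one with the smallest p, up to 3 calls with the smallest p in each other list, and the 5 genes most like HSPA5.

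The members and lists were chosen with earlier results of these data known. Alternatives covered pseudocount, filter, scaling, trend, the samples in the fit, a replicate block and leaving out libraries, and 2 were chosen after seeing the data: leaving out the 2 Caco-2 libraries with the most HepG2 marker RNA and every library numbered 3. Coordinates and the XBP1 intron came from GENCODE v44, promoters from RefSeq.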

Additional observations from a re-analysis of the deposited data

How the results depend on the processing

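The depth of the libraries is unknown, and groups of 2 or 3 libraries limit what could be detected. Within each line, 0 of the 10 genes passed limma's adjusted threshold under every alternative run except the replicate block. Between lines, HSPA5, HSP90B1, PDIA4, SDF2L1 and XBP1 passed in each of the 34 fits run, while PDIA3 turned to 0.13 under median-of-ratios scaling. Of the 10 genes, 5 passed between lines with mono-cultured controls only and 6 without a filter, and 6 to 9 without 1 library. Unless stated, the cause of a shift was not tested.

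Counts below are of all genes passing the adjusted threshold. For Caco-2 FFAs in mono-culture, FFAs in co-culture, co-culture in controls, co-culture with FFAs, averaged FFAs, averaged co-culture and the interaction, in that order, they were 2, 11, 11, 2, 7, 7 and 10 with no filter and 2, 5, 5, 2, 7, 8 and 7 without trend. With only the groups compared, the first 3 were 1, 1 and 0. FFAs in co-culture and co-culture in controls gave 0 and 0 with a pseudocount of 0.1 or a minimum of 5 TPM. Without the 2 Caco-2 libraries with HepG2 marker RNA they gave 11 and 11, with 6 for averaged FFAs, 16 for averaged co-culture, 6 for the interaction and 16 for the FFAs effect between lines. Without every library numbered 3, the first 4 and the interaction gave 1, 0, 1, 1 and 1, HepG2 gave 3 for FFAs in mono-culture, 3 for co-culture with FFAs, 2 for averaged FFAs, 4 for averaged co-culture and 2 for the interaction, and the differences between lines 0 for FFAs and 328 for co-culture. In HepG2 cells no filter gave 1 for FFAs in mono-culture, co-culture in controls, averaged FFAs, averaged co-culture and the interaction, and 9 for the FFAs effect between lines. HepG2 averaged co-culture gave 22 at a minimum of 5 TPM, 4 under quantile normalization and 4 without trend, co-culture in controls gave 1 with only the groups compared, and the FFAs effect between lines gave 1 at 5 TPM.

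Without 1 library in turn the ranges were 0 to 1, 2 to 24, 2 to 24, 0 to 2, 0 to 17, 0 to 13 and 0 to 12 for the 7 Caco-2 comparisons, the highest without co-cultured control replicate 2 for FFAs in co-culture (24). In HepG2 cells they were 0 to 1 for FFAs in mono-culture and for co-culture in controls and with FFAs, and 0 to 15 for averaged co-culture. Between lines they were 3 to 19 for FFAs and 33 to 246 for co-culture, at 33 without mono-cultured control HepG2 replicate 2 and at 246 without replicate 3. By the analysis of variance criteria they were 763 to 1211 genes and 0 to 1 of the 10 in Caco-2 cells, and 920 to 1357 genes and 0 to 1 of the 10 in HepG2 cells. With Benjamini-Hochberg adjustment those criteria gave 9 genes in Caco-2 cells, 1 in HepG2 cells and 0 of the 10 in HepG2 cells, where quantile normalization also gave 0.

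Equal replicate numbers did not meet the criterion for pairing, a correlation above 0.1 in every pair, although in HepG2 cells they correlated more (median 0.30) than different numbers did (median -0.23, 7 of 36 above 0.1). Deviations were taken from the group mean, so the correlations of different numbers were not independent of those of equal numbers. Correlations of deviations between libraries of one number ran from -0.09 to 0.31 in Caco-2 cells, 7 of 15 above 0.1, and from 0.03 to 0.60 in HepG2 cells, 15 of 18 above 0.1, and 5 of 11 and 10 of 12 libraries correlated best with their own number. With a replicate block, Caco-2 cells gave 5 calls for co-culture in controls and 60 for averaged co-culture, and HepG2 cells 6 for co-culture in controls, 1 with FFAs and 492 averaged, 1 of the 10 among them (XBP1, 0.27, limma adjusted p = 0.0295). The block gave 344 for the co-culture effect between lines, 1 of the 10 (XBP1) by the variance criteria in Caco-2 cells, and 1661 genes by them in HepG2 cells.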
